A study of Homo sapiens with 8 samples.

Results

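The transcripts of 10 target genes of NRF2, the transcription factor of the oxidative stress response, were followed in Kyse510 cells, a human esophageal squamous cell carcinoma (ESCC) line, after inhibition or silencing of LSD1, which removes methyl groups from histones, and of G9a, which adds them. The genes were taken by name, as a set of well-known NRF2 targets, and the rule sets no threshold on a measured value. They were chosen with earlier results of these data known, so their counts are not those of an unselected set. They are NQO1, HMOX1, GCLC, GCLM, SRXN1, TXNRD1, AKR1C1, AKR1C2, AKR1C3 and AKR1B10, which are 10 of the 34164 genes listed in 2 expression tables, and all 10 are among the 26360 genes found in both. RNA was sequenced in 8 libraries. The inhibitor table holds cells given vehicle (DMSO), cells given SP2509, an LSD1 inhibitor, at 7 µM, cells given UNC0642, a G9a inhibitor, at 7 µM, and cells given both, each for 2 days. No separate dose is stated for the combination. The knockdown table holds 2 Kyse510 lines that carry a doxycycline (Dox) inducible hairpin against LSD1 (shLSD1) or G9a (shG9a), selected with puromycin for 14 days, each without Dox and after Dox for 2 days. The Dox dose of these libraries, and whether a line is 1 clone, are not given in the sources used here. No line with a non-targeting hairpin was analysed here, so the effect of Dox itself and that of each hairpin cannot be told apart. Every condition has 1 library, so no difference below has a replicate check or a test between conditions. The intervals given are 95% intervals for the reads behind a ratio, exact unless stated otherwise, and they cover counting error only.

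NRF2, encoded by NFE2L2, is held at a low level in resting cells by KEAP1, an adaptor that hands it to a CUL3 ubiquitin ligase. Oxidants and electrophiles modify KEAP1, NRF2 then accumulates, pairs with a small MAF protein and binds the antioxidant response element (ARE) of its target genes. BACH1, a heme-binding repressor, occupies many of the same elements and is best known for holding HMOX1 down. Squamous cancers of the esophagus often carry lesions in this pathway, and the aldo-keto reductases of the AKR1B and AKR1C families are among its most responsive human targets.

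The ARE core, TGACNNNGC or its reverse complement GCNNNGTCA, was searched around the start sites of the genes to show where such an element lies. RefSeq promoter windows of GRCh38, 300 bases long from 250 before to 50 after a start site, exist here for 8 of the 10 genes, and HMOX1 and AKR1B10 have none. Of these 8 genes, 2 had a match in the window, GCLM and TXNRD1, against 13.3% of all 35116 windows. TXNRD1 and AKR1C3 have 2 start sites each, so a count of genes and a share of windows are unlike measures. In the 1000 bases before the start site, a range chosen after the expression values were seen, 4 genes had a match, GCLC, GCLM, NQO1 and TXNRD1. Counted by start site, 5 of the 10 start sites of these 8 genes had a match, against 31.9% of all start sites. AKR1C1, AKR1C2, AKR1C3 and SRXN1 had none in either range, which says only that these letters are absent there. The matches before a start site are shown on the strand of the gene, 5′ to 3′, with the 9 bases of the core in capitals and 15 bases on each side.
GCLC, chr6:53545948-53545986: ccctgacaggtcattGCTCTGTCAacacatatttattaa
GCLM, chr1:93909441-93909479: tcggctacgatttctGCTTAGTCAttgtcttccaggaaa
NQO1, chr16:69726992-69727030: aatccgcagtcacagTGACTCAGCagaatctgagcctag
TXNRD1, upstream start site, chr12:104215665-104215703: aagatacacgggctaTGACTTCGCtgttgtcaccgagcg
TXNRD1, downstream start site, chr12:104286915-104286953: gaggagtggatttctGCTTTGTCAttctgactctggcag
GCLM had its match 34 bases before the start site and NQO1 455 bases before it. The TXNRD1 matches lay 99 and 102 bases before its 2 start sites, and the GCLC match lay 870 bases before. The window of the upstream TXNRD1 start site held 1 more match, which was not within the bases before the start and is not shown. The NQO1 match also holds TGACTCA, the site of AP-1 factors such as JUN and FOS, so its letters do not single out NRF2. No binding was measured in these samples.

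Expression was deposited as FPKM, the number of sequenced fragments scaled to transcript length and library size. Reads recovered from these values gave library totals of 15662035 to 17889466. KDM1A, the gene of LSD1, was at 26.0 FPKM in shLSD1 cells without Dox and at 6.29 with it, a ratio of 0.242 (95% interval 0.221 to 0.265). EHMT2, the gene of G9a, was at 7.85 FPKM in shG9a cells without Dox and at 4.76 with it, a ratio of 0.607 (0.547 to 0.673). EHMT2 was also lower in the combination, at 5.38 FPKM against 11.1 in vehicle, a ratio of 0.484 (0.440 to 0.532). In shG9a cells KDM1A was higher with Dox, with a ratio of 1.36 (1.29 to 1.43). Squamous markers were present, with 8 of 8 reaching 1 FPKM in some library, and their summed level ranged from 490 to 4742 FPKM, while CD3E and PTPRC stayed below 0.05 FPKM and 3 of 11 markers of other cells (COL1A1, COL3A1 and VWF) reached 1 FPKM. The part of these marker differences in the values below was not tested. In bulk RNA, fewer expressing cells and less RNA per cell cannot be told apart.

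The NRF2 targets were mostly lower after SP2509 and after Dox in the shG9a line, mixed after UNC0642 and the combination, and close to their control in the shLSD1 line. A gene was called higher or lower where (FPKM + 1) differed at least 1.3-fold between a library and its own control, and only genes with at least 1 FPKM in 1 of the 2 libraries were compared. SRXN1 was below this limit in every library, so 9 genes entered each comparison. After SP2509, 8 of 9 genes were lower and 0 higher, where 39.9% of all 13342 genes compared were lower and 21.0% higher. The median log2 change was -2.18 for the 9 genes and -0.21 for all genes compared. After UNC0642, 2 genes were higher and 3 lower, where 18.2% of all genes were higher and 16.9% lower, and the median was -0.07 against -0.01. With both inhibitors, 3 genes were higher and 5 lower, where 31.4% were higher and 31.7% lower, and the median was -0.80 against -0.02. The 3 inhibitor comparisons share 1 vehicle library and are not independent of each other.

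In the shLSD1 line, Dox left 7 of 9 genes within 1.3-fold of the control, and 2 were higher and 0 lower, where 24.8% of all genes were higher and 12.3% lower. The median was 0.17 against 0.13 for all genes compared. With Dox in the shG9a line, 7 genes were lower and 1 higher, where 17.6% of all genes were lower and 32.9% higher, and the median was -0.62 against 0.18. AKR1C3 passed the lower limit of 1 FPKM only through the control in the SP2509, combination and shG9a comparisons, so it could not be called higher there. Rescaling by the trimmed mean of the recovered reads (TMM) shifts all genes of a comparison together, and the TMM value on the log2 scale was -0.28 for SP2509, 0.15 for shLSD1 and 0.23 for shG9a. After this rescaling TXNRD1 was called higher in SP2509 cells, at 0.41 on the log2 scale, and HMOX1 was no longer called in either hairpin line, at 0.30 in shLSD1 and 0.25 in shG9a.

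**Figure D1:**
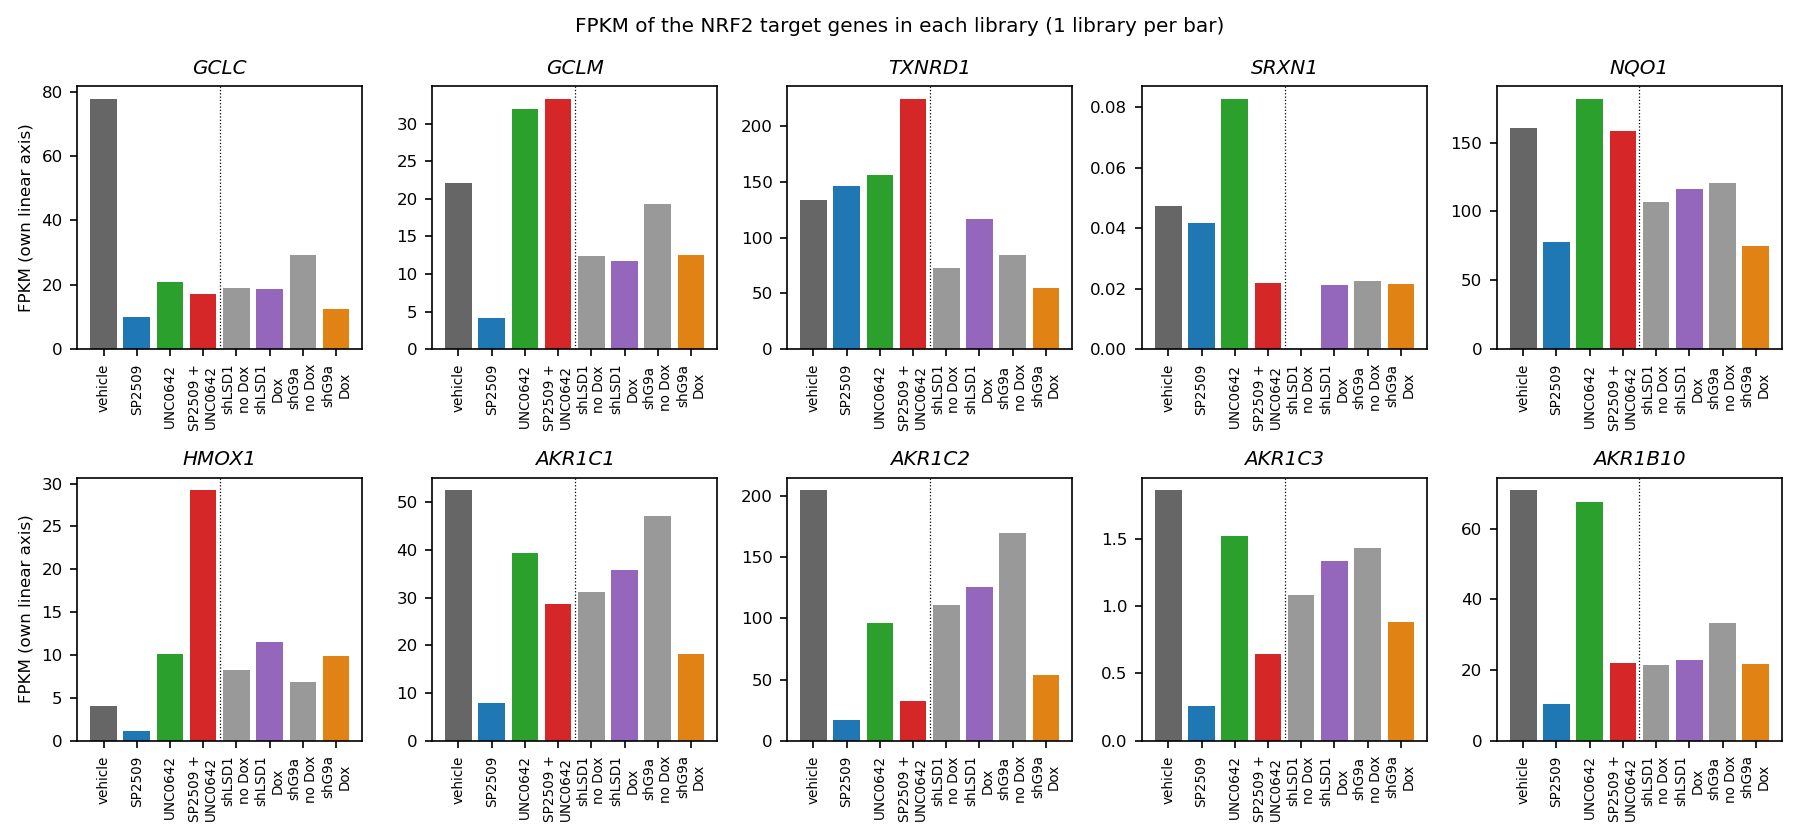
FPKM of each of the 10 genes (vertical axis, linear, its own range in each panel) in the 8 libraries (horizontal axis), 1 library per bar, with the inhibitor libraries left of the dotted line and the hairpin lines right of it. AKR1C2 runs from 17.2 to 205 FPKM, HMOX1 is highest with both inhibitors at 29.2 FPKM, and SRXN1 stays at or below 0.083 FPKM.

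Glutathione synthesis starts with glutamate-cysteine ligase, which has a catalytic subunit, GCLC, and a modifier subunit, GCLM, that raises its efficiency. GCLC (ENSG00000001084, chr6:53497341-53616970, minus strand) was at 77.9 FPKM in vehicle, 10.1 in SP2509, 20.9 in UNC0642 and 17.3 in the combination. It was lower in all 3 inhibitor libraries, by 7.71-fold (7.31 to 8.14) in SP2509, 3.73-fold (3.59 to 3.89) in UNC0642 and 4.50-fold (4.31 to 4.71) in the combination. Among the hairpin libraries it was at 19.0 FPKM without and 18.7 with Dox in shLSD1, and at 29.2 without and 12.6 with Dox in shG9a. The shLSD1 ratio, 0.980 (0.931 to 1.03), spans no change, and the shG9a level was 2.31-fold lower (2.19 to 2.44). Between the tables GCLC also differed, since its vehicle level was above that of either uninduced line. The same held for GCLM, TXNRD1, NQO1, AKR1C1, AKR1C2, AKR1C3 and AKR1B10. AKR1B10, for example, was at 70.9 FPKM in vehicle against 21.3 and 33.4 in the uninduced lines. HMOX1 was lower in vehicle, at 4.09 FPKM against 8.22 and 6.89. This vehicle library is the control of all 3 inhibitor comparisons. The tables were made separately, so these differences are not compared further.

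GCLM (ENSG00000023909, chr1:93885205-93909456, minus strand) was at 22.2 FPKM in vehicle, 4.09 in SP2509, 32.0 in UNC0642 and 33.3 in the combination. It followed GCLC in SP2509, where it was 5.41-fold lower (4.85 to 6.05), and not in the other inhibitor libraries, where it was 1.44-fold (1.36 to 1.53) and 1.50-fold (1.42 to 1.59) higher. The subunits of 1 enzyme therefore lay on opposite sides of vehicle with UNC0642, alone or combined. GCLM was at 12.4 and 11.7 FPKM without and with Dox in shLSD1, a ratio of 0.946 (0.871 to 1.03), and at 19.4 and 12.5 in shG9a. It was 1.54-fold lower (1.43 to 1.66) with Dox in shG9a.

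TXNRD1 and SRXN1 belong to the thioredoxin system, which reduces oxidized protein thiols. TXNRD1 (ENSG00000198431, chr12:104215779-104350305, plus strand), the cytosolic thioredoxin reductase, was at 133 FPKM in vehicle, 147 in SP2509, 156 in UNC0642 and 225 in the combination. It was the 1 gene of the 9 that was not lower in SP2509, with a ratio of 1.10 (1.07 to 1.12), and it was 1.68-fold higher (1.65 to 1.72) with both inhibitors. Its level was 72.5 FPKM without and 117 with Dox in shLSD1, and 84.2 without and 54.5 with Dox in shG9a. TXNRD1 was thus 1.61-fold higher (1.57 to 1.66) with Dox in shLSD1 and 1.55-fold lower (1.50 to 1.60) with Dox in shG9a, and the difference between the lines was not tested.

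SRXN1 (ENSG00000271303, chr20:646615-653370, minus strand), sulfiredoxin, repairs over-oxidized peroxiredoxins. It had 0 to 4 reads in each library and is listed at 0 to 0.0829 FPKM, too few for a ratio. On the reference annotation 90.7% of its 2528 exon bases lie on the same strand as exons of the readthrough gene AL121758.1, which itself had 0 to 4 reads. How the authors assigned reads that fall in both genes is not given in the sources used here, so the low values are not read as absence of SRXN1 RNA.

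NQO1 (ENSG00000181019, chr16:69706996-69726951, minus strand) reduces quinones by transfer of an electron pair, which bypasses reactive semiquinones. It was at 161 FPKM in vehicle, 77.5 in SP2509, 182 in UNC0642 and 159 in the combination. SP2509 alone stood apart, 2.07-fold lower (2.00 to 2.15), and the combination was at the vehicle level, with a ratio of 0.987 (0.957 to 1.02). Without and with Dox NQO1 was at 107 and 116 FPKM in shLSD1, and at 120.5 and 75.1 in shG9a. It was 1.60-fold lower (1.54 to 1.67) with Dox in shG9a and within 1.3-fold of its control in shLSD1. An antisense gene (ENSG00000261602) covers 19.4% of the NQO1 exon bases, and without strand information its reads could not be separated.

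HMOX1 (ENSG00000100292, chr22:35380361-35394214, plus strand), heme oxygenase, splits heme into biliverdin, iron and carbon monoxide. Its level was 4.09 FPKM in vehicle (154 reads), 1.07 in SP2509 (46 reads), 10.1 in UNC0642 (435 reads) and 29.2 in the combination (1187 reads). HMOX1 was 3.81-fold lower (2.72 to 5.41) in SP2509, 2.47-fold higher (2.05 to 2.99) in UNC0642 and 7.15-fold higher (6.04 to 8.51) with both, the largest increase among the 9 genes in the 5 comparisons. Without and with Dox it was at 8.22 and 11.5 FPKM in shLSD1, and at 6.89 and 9.87 in shG9a. HMOX1 was the only gene of the set that was called higher with Dox in both lines, by 1.40-fold (1.21 to 1.61) in shLSD1 and 1.43-fold (1.23 to 1.68) in shG9a, and neither call held after centring on the median gene (0.33 in each line on the log2 scale) or after TMM scaling.

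The aldo-keto reductases reduce aldehydes and ketones with NADPH, and those of the AKR1C family also act on steroids and prostaglandins. AKR1C1 (ENSG00000187134, chr10:4963253-4983283), AKR1C2 (ENSG00000151632, chr10:4987400-5018031) and AKR1C3 (ENSG00000196139, chr10:5035354-5107686) lie side by side. AKR1C2 was at 205 FPKM in vehicle, the highest of the 10 genes on this per-length scale, and at 17.2 in SP2509, 96.5 in UNC0642 and 32.7 in the combination. It was 12-fold lower (11.4 to 12.5) in SP2509, the largest change of the set, 2.12-fold lower (2.08 to 2.17) in UNC0642 and 6.28-fold lower (6.06 to 6.51) with both. In the hairpin lines AKR1C2 was at 111 and 126 FPKM without and with Dox in shLSD1, and at 170.1 and 53.5 in shG9a, where it was 3.18-fold lower (3.09 to 3.27).

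AKR1C1 was at 52.6 FPKM in vehicle, 8.0 in SP2509, 39.3 in UNC0642 and 28.7 in the combination. The 4 inhibitor libraries had the same order as for AKR1C2, and AKR1C1 was closer to vehicle in each, 6.60-fold lower (6.21 to 7.01) in SP2509, 1.34-fold lower (1.29 to 1.38) in UNC0642 and 1.83-fold lower (1.76 to 1.90) with both. In shLSD1 it was at 31.2 and 35.8 FPKM without and with Dox, and in shG9a at 47.1 and 18.1, which is 2.60-fold lower (2.49 to 2.72). AKR1C3 was scarce, at 1.86 FPKM in vehicle, 0.260 in SP2509, 1.52 in UNC0642 and 0.641 in the combination. It was 7.15-fold lower (4.49 to 11.9) in SP2509, with 21 reads against 132, and 2.90-fold lower (2.08 to 4.12) with both. With and without the hairpins induced, AKR1C3 was at 1.34 and 1.08 FPKM in shLSD1 and at 0.879 and 1.43 in shG9a, and neither pair passed 1.3-fold on the (FPKM + 1) scale.

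Reads may be shared among these genes, because the coding sequences of AKR1C1 and AKR1C2 are 98.0% identical over 972 bases, and AKR1C3 is 92.5% identical to AKR1C1 and 91.9% to AKR1C2. The split between the copies is therefore uncertain, and the reads of the 3 genes were also summed. The sum was 9.87-fold lower (9.51 to 10.2) in SP2509, 1.84-fold lower (1.81 to 1.87) in UNC0642, 3.86-fold lower (3.76 to 3.95) with both inhibitors and 2.99-fold lower (2.92 to 3.06) with Dox in shG9a. With Dox in shLSD1 it was 1.14-fold higher (1.11 to 1.16). The AKR1C1 and AKR1C2 promoter windows are 98.6% identical, against 79.9% and 81.4% for AKR1C3 with each.

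AKR1B10 (ENSG00000198074, chr7:134527592-134541408, plus strand) reduces retinal and lipid aldehydes. It was at 70.9 FPKM in vehicle, 10.3 in SP2509, 67.6 in UNC0642 and 21.9 in the combination. UNC0642 alone left it at the vehicle level, with a ratio of 0.953 (0.895 to 1.01), while it was 6.88-fold lower (6.11 to 7.77) in SP2509 and 3.24-fold lower (2.96 to 3.54) with both. In the hairpin lines it was at 21.3 and 22.8 FPKM without and with Dox in shLSD1, and at 33.4 and 21.8 in shG9a, which is 1.54-fold lower (1.39 to 1.70). Its coding sequence is 94.3% identical to that of AKR1B15, so its reads may be shared as well.

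**Figure D2:**
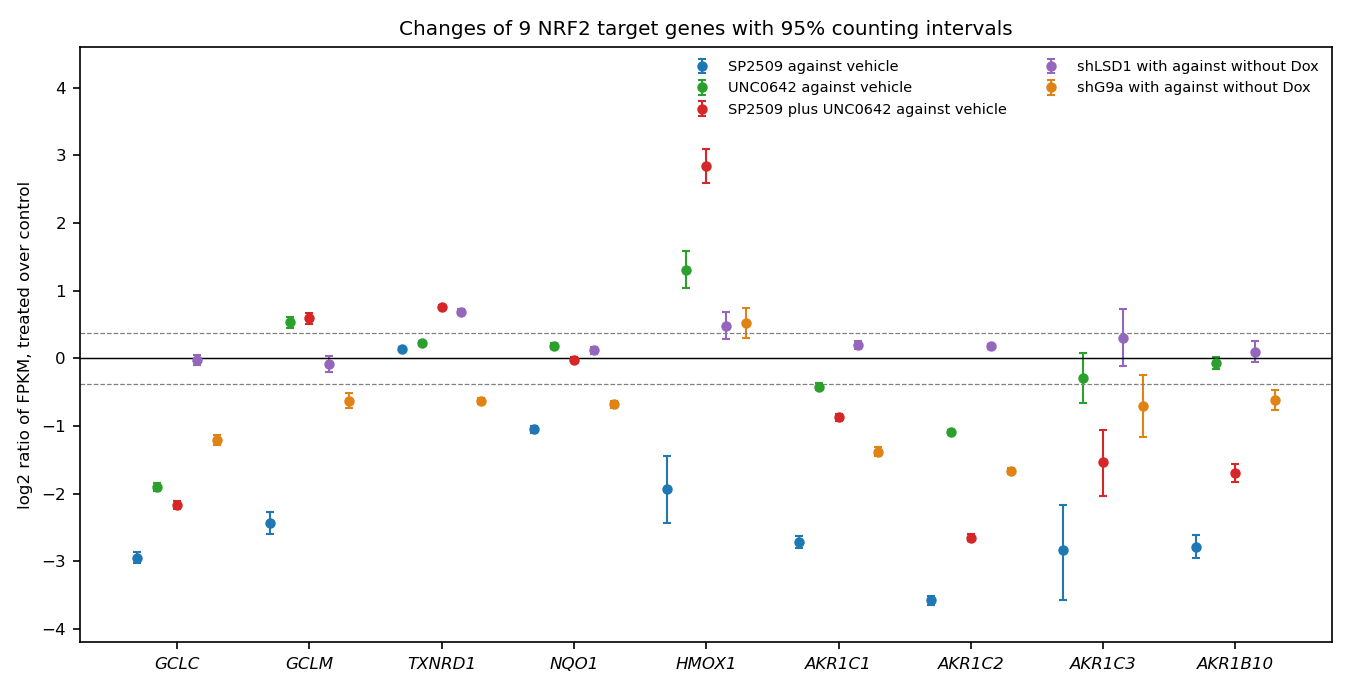
Log2 ratio of FPKM, treated over control (vertical axis), for 9 genes (horizontal axis) in the 5 comparisons (colours), with bars for the 95% exact counting interval and dashed lines at 1.3-fold on either side. SP2509 points lie below the lower line for 8 of the 9 genes, shG9a points lie below it for 8, among them AKR1C3 whose (FPKM + 1) ratio stayed within 1.3-fold, and HMOX1 is above the upper line in 4 of the 5 comparisons.

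The 2 lines without Dox were compared with each other to gauge how far control libraries stood apart. Of the 9 genes, 5 were at least 1.3-fold higher in shG9a cells than in shLSD1 cells and 0 were lower, where 3.04% of all 12449 genes compared were higher and 4.51% lower. GCLC was 1.53-fold higher (1.46 to 1.61), GCLM 1.56-fold (1.45 to 1.68), AKR1C1 1.51-fold (1.46 to 1.57), AKR1C2 1.53-fold (1.50 to 1.57) and AKR1B10 1.57-fold (1.42 to 1.73). NQO1 and TXNRD1 differed less, with ratios of 1.13 (1.09 to 1.17) and 1.16 (1.13 to 1.20). This gap between uninduced lines is as large as the Dox difference of GCLM and AKR1B10 in shG9a, whose Dox levels of 12.5 and 21.8 FPKM were close to the 12.4 and 21.3 FPKM of shLSD1 cells without Dox. Against the mean of both uninduced lines, GCLM and AKR1B10 were within 1.3-fold in shG9a, each at -0.32 on the log2 scale, while GCLC, AKR1C1, AKR1C2, NQO1 and TXNRD1 were still lower. With that control the median of the 9 genes was -0.52 in shG9a, and in shLSD1 it turned from 0.17 to -0.13.

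The combination was set against each single inhibitor to ask what the second compound added. The doses in the combination are not stated, so the second compound and another dose of the first cannot be told apart. Compared to SP2509 alone, all 8 genes above the expression limit were at least 1.3-fold higher with UNC0642 added, where 41.8% of all 13658 genes were higher, and the median log2 difference was 1.02 against 0.20. HMOX1 was 27.2-fold higher (20.3 to 37.4), GCLM 8.14-fold (7.33 to 9.06), AKR1C1 3.60-fold (3.38 to 3.84), NQO1 2.05-fold (1.97 to 2.12), AKR1C2 1.90-fold (1.80 to 2.01) and GCLC 1.71-fold (1.61 to 1.83). AKR1B10 was 2.13-fold higher (1.86 to 2.44) and TXNRD1 1.53-fold (1.50 to 1.56), and AKR1C3 was below 1 FPKM in both libraries.

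Compared to UNC0642 alone, the set split when SP2509 was added. HMOX1 was 2.89-fold higher (2.59 to 3.24) and TXNRD1 1.44-fold (1.41 to 1.46), which makes 2 of 9 genes higher where 27.7% of all genes were. The 4 AKR genes were lower, where 27.1% of all genes were, with AKR1B10 3.08-fold (2.82 to 3.37), AKR1C2 2.96-fold (2.85 to 3.07), AKR1C3 2.37-fold (1.69 to 3.37) and AKR1C1 1.37-fold (1.32 to 1.43) below UNC0642. AKR1C3 passed the 1 FPKM limit only through the UNC0642 library, so it could not be called higher here either. GCLM, with a ratio of 1.04 (0.992 to 1.10), NQO1 and GCLC were within 1.3-fold of UNC0642.

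If the inhibitors acted additively on the log2 scale, the combination would sit at the sum of their single changes. All 9 genes were above that sum by at least 1.3-fold, where 40.9% of all 14801 genes were above and 24.7% below. The median departure was 1.97 against 0.19 for all genes. Without a pseudocount, the departure was 3.46 (2.96 to 3.96) for HMOX1, 2.68 (2.57 to 2.79) for GCLC, 2.50 (2.32 to 2.67) for GCLM and 2.27 (2.16 to 2.37) for AKR1C1, and it was smallest for TXNRD1, at 0.39 (0.35 to 0.43). The intervals of the departures use a normal approximation and are not exact. Each departure uses the same 4 libraries, so a vehicle or SP2509 library that stood apart would move all of them together, which was not tested.

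The transcripts of the NRF2 regulators were counted in the same way. Of a list of 12 such genes, 3 were higher and 6 lower in SP2509, 3 and 3 in UNC0642, 6 and 3 with both, 2 and 1 with Dox in shLSD1, and 5 and 5 in shG9a. Shares of all genes higher and lower were 21.0% and 39.9% in SP2509, 18.2% and 16.9% in UNC0642, and 31.4% and 31.7% with both. They were 24.8% and 12.3% in shLSD1 and 32.9% and 17.6% in shG9a, and the SP2509 counts are near these shares. NFE2L2, which encodes NRF2, was at 43.2 FPKM in vehicle, 53.9 in SP2509, 27.2 in UNC0642 and 24.2 in the combination. It was highest in SP2509, and its log2 changes in the hairpin lines were 0.35 and 0.25. The part of NFE2L2 RNA in the target levels was not tested. KEAP1, the adaptor that targets NRF2 for degradation, changed by -0.45 in SP2509, -0.41 in UNC0642 and 0.59 in the combination, and by 0.33 and 0.69 in shLSD1 and shG9a. CUL3, the scaffold of the ligase, was at 7.58 FPKM in vehicle and 1.26 in SP2509, 5.99-fold lower, and close to vehicle in the other inhibitor libraries. SQSTM1, a selective autophagy receptor that binds KEAP1 and is itself an NRF2 target, was lower with SP2509 and in shG9a, with log2 changes of -0.45 and -0.63.

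BACH1, the repressor of HMOX1, was at 6.42 FPKM in vehicle, 18.5 in SP2509, 10.8 in UNC0642 and 10.2 in the combination. It was above vehicle in all 3, and its part in the HMOX1 level was not tested. In the hairpin lines BACH1 was at 6.47 and 5.76 FPKM without and with Dox in shLSD1, and at 6.75 and 2.29 in shG9a, 2.95-fold lower. The small MAF proteins pair with NRF2 or BACH1 on DNA. MAFF was at 4.82 FPKM in vehicle, 28.3 in SP2509, 10.9 in UNC0642 and 38.9 in the combination, and MAFK at 6.04, 12.5, 14.7 and 37.5 in the same order. Both were highest in the combination and lower with Dox in shG9a, MAFF at 18.6 and 2.80 FPKM and MAFK at 24.2 and 7.80 without and with Dox. MAFK was lower in shLSD1 too, with a log2 change of -0.84. MAFG was 2.11-fold lower in SP2509 and 2.81-fold higher in the combination, with log2 changes of 0.01 and -0.17 in the hairpin lines. Protein levels and modification of KEAP1, the main point of control of NRF2, were not measured.

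**Figure D3:**
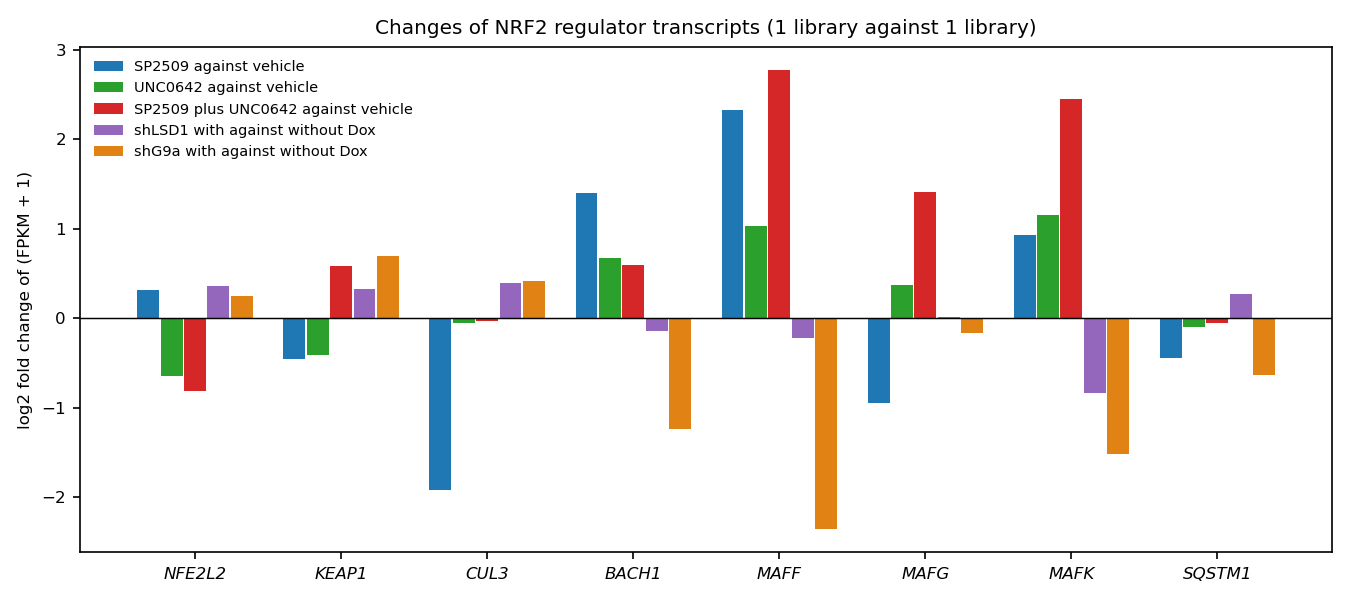
Log2 fold change of (FPKM + 1) against the own control (vertical axis) of 8 genes that encode NRF2 or act on it (horizontal axis) in the 5 comparisons (colours), 1 library against 1 library per bar. NFE2L2 is above 0 in SP2509 and at -0.65 and -0.81 in UNC0642 and the combination, and MAFF runs from -2.36 in shG9a to 2.78 in the combination.

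Other genes of the pathway were counted from 5 lists by function, none of which holds any of the 10 genes. The lists, too, were chosen with earlier results of these data known. Their counts are to be read against the shares of all genes, which were 39.9% lower and 21.0% higher in SP2509, 16.9% and 18.2% in UNC0642, 31.7% and 31.4% with both, 12.3% and 24.8% in shLSD1, and 17.6% and 32.9% in shG9a. The NADPH list holds enzymes of the pathways that supply the NADPH used by NQO1, TXNRD1 and the aldo-keto reductases. Not every enzyme of the list makes NADPH itself, TKT, TALDO1, RPIA, RPE and PGLS among them. Of its 12 genes, 11 were compared in SP2509 and 8 were lower and 0 higher, with a median log2 change of -0.78. IDH1 and ME1, which make NADPH from isocitrate and malate, were 3.39-fold and 3.13-fold lower in SP2509. With both inhibitors 8 of 11 were again lower and 0 higher (median -0.70), with UNC0642 3 were lower and 1 higher (-0.17), with Dox in shLSD1 6 of 12 were higher and 0 lower (0.26), and in shG9a 4 were higher and 3 lower (-0.07).

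The detoxification list, of enzymes and exporters of conjugates, had 30 of 35 genes compared. In SP2509 22 were lower and 0 higher (median -0.78), with UNC0642 8 were lower and 4 higher (-0.20), with both 17 were lower and 5 higher (-0.53), in shLSD1 6 were lower and 10 higher (0.26), and in shG9a 12 were lower and 5 higher (-0.21). ALDH3A1, an aldehyde dehydrogenase, was lower in every comparison, from 34.8 FPKM in vehicle to 11.0, 18.5 and 3.05 in SP2509, UNC0642 and the combination, and from 28.4 to 4.57 FPKM with Dox in shG9a. CES1, a carboxylesterase, was 11.2-fold lower in SP2509 and 11.1-fold lower in shG9a, and the conjugate exporter ABCC3 was 14.0-fold lower in shG9a. These genes were not lower throughout. CES1 was 1.86-fold higher in UNC0642 and 2.29-fold higher with Dox in shLSD1, and ABCC3 was 1.35-fold and 1.25-fold higher in the same comparisons. AKR1B1, a close relative of AKR1B10, went another way and was at 38.6 FPKM in vehicle, 24.1 in SP2509, 139.9 in UNC0642 and 229.9 in the combination. OSGIN1, an oxidative stress gene, was 2.58-fold lower in SP2509 and 3.23-fold higher with both, like HMOX1, but 1.70-fold lower in UNC0642 and 4.22-fold lower in shG9a, where HMOX1 was higher. The HMOX1 call in shG9a did not hold after centring or TMM scaling.

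The glutathione list was near the shares of all genes in SP2509, with 8 genes lower and 4 higher of 21 (median -0.28), and had 6 and 3 in UNC0642 (-0.04), 7 and 6 of 22 with both (-0.16), 1 and 7 of 22 in shLSD1 (0.26) and 5 and 6 of 22 in shG9a (-0.02). Its cystine importer SLC7A11, which supplies the cysteine for GCLC and GCLM, was at 48.9 FPKM in vehicle, 4.20 in SP2509, 23.0 in UNC0642 and 10.5 in the combination. In the hairpin lines SLC7A11 was 2.01-fold higher with Dox in shLSD1, at 8.46 and 17.0 FPKM, and 5.91-fold lower in shG9a, at 12.8 and 2.17. CHAC1, which degrades glutathione, was 21.0-fold lower in SP2509, 7.48-fold lower in UNC0642 and 17.5-fold lower in shG9a, and 1.84-fold higher with both inhibitors. SLC7A11 and CHAC1 are also known targets of ATF4, the factor of the amino acid and endoplasmic reticulum stress response.

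The thioredoxin list had 16 genes compared, of which 6 were lower and 3 higher in SP2509 (median -0.15), 1 and 2 in UNC0642 (-0.09), 6 and 4 with both (-0.20), 1 and 6 in shLSD1 (0.15) and 2 and 8 in shG9a (0.36). TXNIP, which binds and inhibits thioredoxin and is not an NRF2-induced gene, was at 1.18 FPKM in vehicle and 30.3 in the combination, and at 1.12 and 48.9 FPKM without and with Dox in shG9a. In the heme and iron list, 11 genes compared, 4 were lower and 1 higher in SP2509 (-0.04), 2 and 1 in UNC0642 (-0.09), 4 and 3 with both (0.05), 0 and 1 in shLSD1 (0.11) and 1 and 2 in shG9a (0.07). FTL, the ferritin light chain and an NRF2 target, was at 6826 FPKM in vehicle and 3259 in SP2509, 2.09-fold lower, and at 7994 and 3260.3 FPKM without and with Dox in shG9a, 2.45-fold lower. In the combination, where HMOX1 was highest, ALAS1, the first enzyme of heme synthesis, was 3.03-fold higher, and HMOX2, the constitutive heme oxygenase, was 2.68-fold higher.

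**Figure D4:**
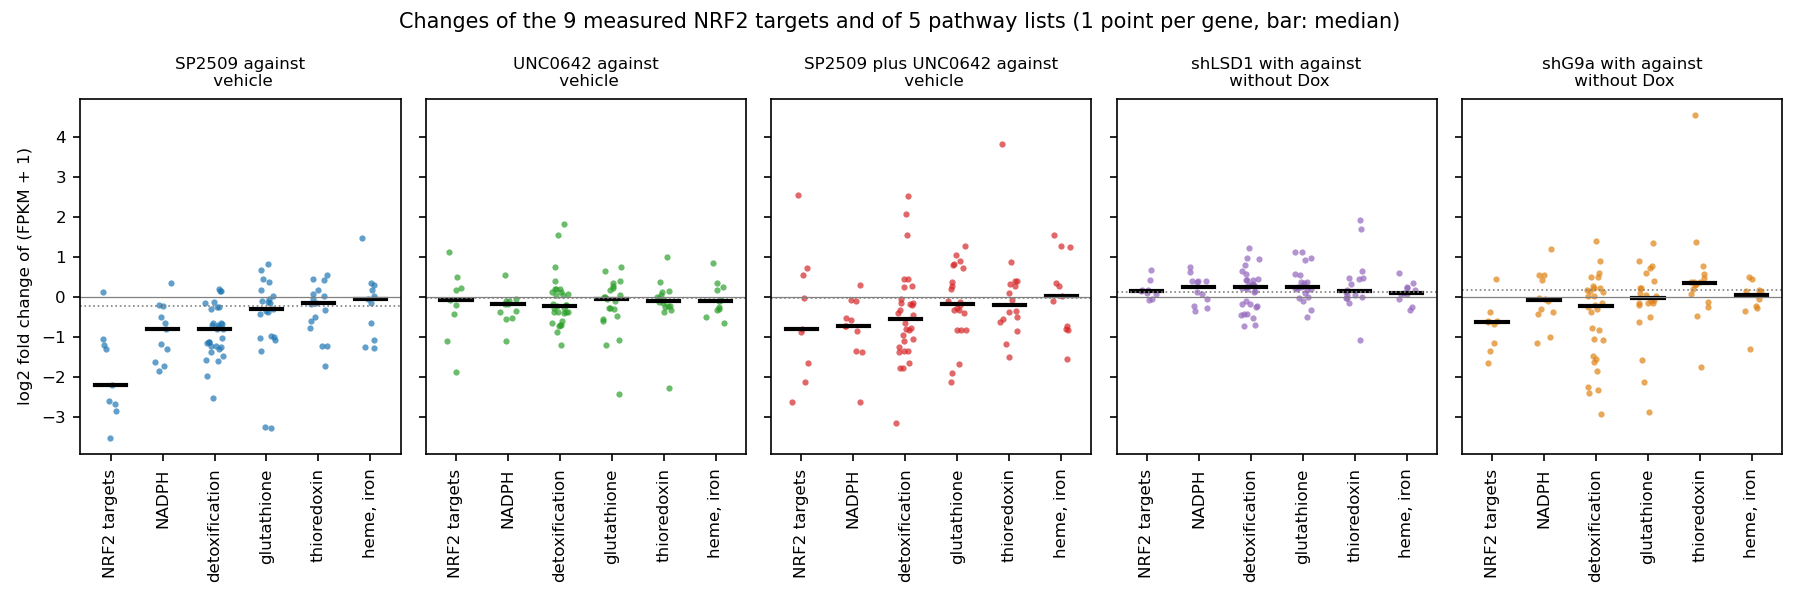
Log2 fold change of (FPKM + 1) (vertical axis) of the 9 measured NRF2 targets and of the genes of 5 pathway lists (horizontal axis), 1 point per gene and 1 panel per comparison, with the median as a black bar and the median of all genes compared as a dotted line. In SP2509 the medians are -2.18 for the targets and -0.78 for both the NADPH and the detoxification lists, against -0.21 for all genes.

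HMOX1 also answers to factors other than NRF2, among them AP-1, ATF4 and heat shock factors, and a list of 12 such factors and heat shock genes was counted beside it. It had 6 genes higher and 2 lower in SP2509 (median 0.38), 6 and 2 in UNC0642 (0.60), 10 and 1 with both (1.70), 1 and 7 in shLSD1 (-0.77) and 3 and 8 in shG9a (-0.76). Shares of all genes higher and lower were 21.0% and 39.9% in SP2509, 18.2% and 16.9% in UNC0642, and 31.4% and 31.7% with both. They were 24.8% and 12.3% in shLSD1 and 32.9% and 17.6% in shG9a. The AP-1 gene FOSL1 was at 6.19 FPKM in vehicle, 132 in SP2509, 78.9 in UNC0642 and 148 in the combination, and JUN at 21.9, 187, 92.0 and 139. With Dox, FOSL1 and JUN were lower in each hairpin line. The heat shock gene HSPA1A had the order of HMOX1 in UNC0642 and the combination, at 24.9 and 50.9 FPKM against 7.35 in vehicle. Unlike HMOX1 it was not lower in SP2509, at 8.89 FPKM. With Dox it was lower in shLSD1, at 32.8 and 18.2 FPKM without and with Dox, and higher in shG9a, at 32.0 and 42.3. Its reads may be shared with its paralog HSPA1B, which was 5.17-fold higher with both inhibitors. The part of any of these factors in the HMOX1 level was not tested.

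The genes whose 5 log2 changes lay nearest to those of 4 of the targets were found among 6607 protein-coding genes with at least 5 FPKM in some library of each table. The distance is the root mean square difference over the 5 comparisons, 3 of which share the vehicle library. NQO1 had the nearest neighbours, ALG5 at 0.17, FBXO2 at 0.18 and PIGH at 0.20. AKR1C1 had MOCOS at 0.25, TMED7 at 0.31 and EIF5 at 0.39, and GCLM had CERK at 0.39, B3GALT6 at 0.48 and SDC3 at 0.51. HMOX1 had FEN1 at 0.52, IL6R at 0.54 and TOB1 at 0.54, all of which shared the high combination value, at 1.88, 2.02 and 2.01 on the log2 scale against 2.57 for HMOX1. None of these 12 neighbours is 1 of the 10 targets.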

How the data were processed

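The authors sequenced Kyse510 RNA as paired reads of 150 bases, mapped them to GRCh38 (release 87 annotation) and deposited FPKM per gene in 2 tables. The aligner, the counter and strand handling are not given in the sources used here. Deposited FPKM were compared as log2(FPKM + 1), which understates changes of low genes. For the intervals, library totals were solved from 7598 genes with 1 exon (GENCODE 44), and each gene's length was taken as the smallest that gave whole reads in all its values, within 0.001, or in each table separately for 1831 genes, GCLC among them. This recovered 99.6% to 99.8% of each total. The procedure was tested on simulated data. Ratios carry Clopper-Pearson intervals, and departures from the summed log2 changes carry intervals from a normal approximation. The genes and lists were chosen with earlier results of these data known. List genes were named where they differed at least 2-fold in a comparison and reached 5 FPKM, and all 8 main regulators were named, as were the 3 nearest genes of 4 targets. The comparison of the uninduced lines and the summed AKR1C reads were added after the values were seen. Alternatives changed the pseudocount, filter, fold, scaling, a read-based p and the Dox control. Python 3.11.15, pandas 2.3.3, numpy 2.4.6 and scipy 1.17.1 were used.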

Additional observations from a re-analysis of the deposited data

Results flagged for a closer look

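TXNRD1, the cytosolic thioredoxin reductase, is singled out because Dox was followed by opposite differences in the 2 hairpin lines. Its log2 change was 0.68 in shLSD1 and -0.62 in shG9a, and this difference was not tested, because each line has 1 library without and 1 with Dox. The direction in each line was the same in all 3 scalings and with the mean of both uninduced lines as the control.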

How the results depend on the processing

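No paired analysis was possible because each condition has 1 library, and leaving out a replicate was not run for the same reason. At a threshold of 2-fold, 1 gene was higher in UNC0642, 1 higher and 3 lower in the combination, 0 higher in shLSD1, and 0 higher and 3 lower in shG9a. After centring on the median gene, 1 gene was higher in shLSD1 and 0 in shG9a, and after TMM scaling 1 was higher in SP2509, 1 in shLSD1 and 0 in shG9a. With the mean of both uninduced lines as the control, 1 gene (GCLM) was lower in shLSD1 and 0 were higher in shG9a. Of the counts of genes recomputed in this way, 71 stayed within 1.5 times the value reported and 13 moved beyond it. The medians were less stable, and 11 stayed within their own tolerance while 11 moved beyond it. Among the log2 changes of single genes, 155 stayed within theirs and 65 moved. Depth limits SRXN1, which had at most 4 reads in a library, and AKR1C3, which had 21 to 132, while the lack of replicates limits all other genes.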
